A study of Mus musculus with 6 samples.

Results

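Genes of zinc finger proteins with Zfp symbols were examined in mouse marrow cells that the labels call LT-HSC, for long-term hematopoietic stem cell. Members were chosen by their FPKM in these same libraries, among the table entries where the symbol was Zfp followed by digits alone. Zfp36, an early response gene whose protein binds RNA, was left out. Of 342 such rows in a table of 21878, 263 had at least 1 FPKM in 3 or more of the 6 libraries, and these 263 genes were described out of 10620 that passed the same level threshold. FPKM counts sequenced fragments relative to gene length and to the size of the library. Of the other rows, 68 were above 0 but under the threshold and 11 were listed at 0 in every library.

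The cells came from wild-type (WT) mice fed for 3 months, 3 libraries on control diet (CD) and 3 on a serine/glycine-free diet (SGFD). The gate was Lin-c-Kit+Sca1+CD34-CD135-. The labels give no age, strain or sex, and do not say whether each library stands for 1 mouse or for several. The p-values therefore reflect only how far these libraries scatter, and that scatter may be technical. The question was which transcripts differ between the diets.

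Most Zfp genes encode proteins with repeated C2H2 zinc fingers, in which a pair of cysteines and a pair of histidines hold a zinc ion and each finger reads a few bases of DNA. Many also carry a KRAB domain at the amino end, which recruits the corepressor TRIM28 and, through it, the histone methyltransferase SETDB1. KRAB zinc finger proteins are best known for silencing retroelements and for guarding imprinted genes. A smaller number of genes with the same kind of symbol encode RNA-binding, ribosome assembly or spindle proteins with few fingers.

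The fingers can be seen in the coding bases. The sequences here show 2 neighbouring fingers of Zfp760, the gene with the largest fitted fall on the log2(FPKM + 1) scale, and the first finger match of Zfp207 and of Zfp622, which rose. Capitals mark the 4 codons of the zinc-binding cysteines and histidines. The sequences are coding exon bases of GENCODE M21 transcripts on the gene's strand, 5′ to 3′. Zfp760 lies on chromosome 17 from 21707430 to 21725636 in GRCm38, Zfp207 on chromosome 11 from 80383279 to 80408561 and Zfp622 on chromosome 15 from 25984366 to 25998482.
Zfp760 finger match 1: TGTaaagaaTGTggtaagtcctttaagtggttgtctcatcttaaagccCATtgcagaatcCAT
Zfp760 finger match 2: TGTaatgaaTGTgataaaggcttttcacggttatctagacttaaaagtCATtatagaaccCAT
Zfp207 finger match 1: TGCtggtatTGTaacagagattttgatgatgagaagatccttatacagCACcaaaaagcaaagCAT
Zfp622 finger match 1: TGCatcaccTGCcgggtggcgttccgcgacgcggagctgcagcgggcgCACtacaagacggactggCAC
The pair in Zfp760 has 63 bases each from the first cysteine codon to the last histidine codon, and the gene has 17 such matches in all. The matches of Zfp207 and Zfp622 span 66 and 69 bases.

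Zfp genes were mostly lower with SGFD. Of the 263 genes, 198 fell and 4 rose at an adjusted p of 0.05, where 59.4% of all tested genes passed in either direction (limma on log2(FPKM + 1), Benjamini-Hochberg over all 10620 tested genes). Over all tested genes 41.8% were lower and 17.7% higher by the same rule, against 75.3% and 1.52% of the Zfp genes. All 3 SGFD values lay below the 3 CD values for 202 Zfp genes (45.5% of all tested genes) and above them for 4 (19.6%). The median log2 fold change was -0.41 for the Zfp genes and -0.13 for all tested genes, and the median ratio of mean FPKM was 0.696 and 0.905. Changes were moderate in size, with quartiles of -0.57 and -0.24, the lowest at -0.97 and the highest at 0.41. Of the 61 that passed in neither direction, 45 had a negative fitted change. The genes were taken up with this tendency already known, so these counts describe it and are not independent evidence for it.

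**Figure D1:**
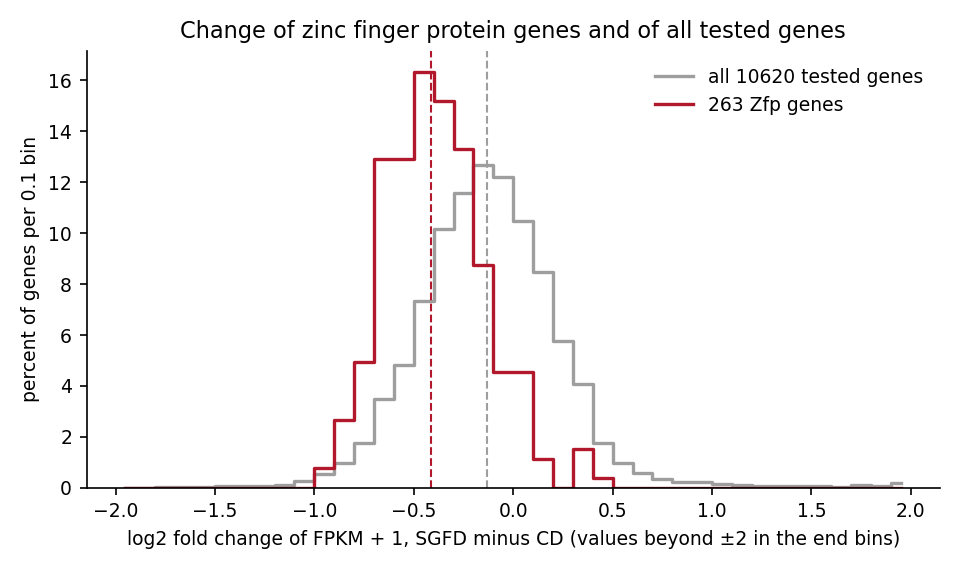
Distribution of the log2 fold change of FPKM + 1, SGFD minus CD, in percent of genes per bin of 0.1, for the 263 Zfp genes (red) and all 10620 tested genes (grey), with dashed lines at the medians. The red curve lies to the left, with a median of -0.41 against -0.13, and only a small group stands right of 0.3.

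The direction did not depend on the scaling between libraries, but the counts did. The deposited FPKM summed to between 427769 and 433592 in the CD libraries and between 464222 and 485048 with SGFD. After median-ratio scaling, which puts the median of all tested genes at -0.01, 157 Zfp genes were lower and 10 higher, with a median of -0.30. Of all 10620 tested genes 2844 were lower and 3054 higher on that scale. Quantile normalization left 99 Zfp genes lower and 16 higher, with a median of -0.18 against -0.02 for all genes. Of all tested genes 2588 were then lower and 2247 higher. Scaling to equal FPKM totals gave 229 Zfp genes lower and 3 higher, and 6334 lower and 1034 higher of all tested genes. Under all 4 scales 95 Zfp genes were lower and 3 higher, and no Zfp gene lower on the deposited scale was called higher on another. The count under all 4 scales is not given here for all tested genes, so it describes the Zfp genes only.

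In each library the shift was of like size. The Zfp genes together held 0.486%, 0.478% and 0.490% of all FPKM in CD replicates 1 to 3, and 0.357%, 0.378% and 0.338% in SGFD replicates 1 to 3. Their median level was 4.52, 4.57 and 4.84 FPKM with CD and 3.01, 3.24 and 2.98 FPKM with SGFD, so the diets did not overlap. Of the 342 listed rows, 265 to 268 reached 1 FPKM in a CD library and 231 to 237 in an SGFD library. The level threshold admitted 19 genes through CD alone, with no SGFD library at 1 FPKM, and none through SGFD alone, so those 19 had to be lower. With these included, 39 members had all 3 CD and fewer than 3 SGFD libraries at 1 FPKM. The SGFD libraries alone would not have admitted those 39, so the threshold leaned toward falls in them. Zfp972 was the reverse, with all 3 SGFD and fewer than 3 CD libraries at 1 FPKM. Without any threshold, 205 of 331 rows above 0 fell and 4 rose. The share of all genes called in that fit is not given here, so the count describes the Zfp rows only. Among genes with a mean of at least 5 FPKM over all libraries, 70 of 106 Zfp genes (66.0%) and 37.2% of 8004 tested genes were lower. Next to the threshold, Zfp287 (1.06, 1.19 and 1.38 FPKM with CD and 0.720, 0.838 and 0.648 with SGFD) and Zfp108 lay just inside, both admitted through CD alone. Zfp93 (1.20, 1.11 and 0.999 against 0.686, 0.409 and 0.481 FPKM) and Zfp169 lay just outside.

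Zfp genes are expressed at low levels, and the change of all genes varied with level. The Zfp genes had a median level of 3.84 FPKM over the 6 libraries, against 12.4 FPKM for all tested genes, and 157 of them were under 5 FPKM. With all tested genes in 5 equal bins of mean log2(FPKM + 1), 138 Zfp genes fell in the lowest bin and 7 in the highest. In the lowest bin the median change was -0.46 for Zfp genes and -0.31 for all genes. From the second to the fourth bin it was -0.41 against -0.27, -0.26 against -0.17 and -0.19 against -0.06. In the highest bin, where all genes had a median of 0.11, the 7 Zfp genes had -0.11. In total 197 of 263 Zfp genes (74.9%) lay below the median of their own bin, 110 lay below its first quartile, and the median distance from it was -0.14. The shift relative to genes of similar level was thus smaller than the shift relative to all genes, -0.28.

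**Figure D2:**
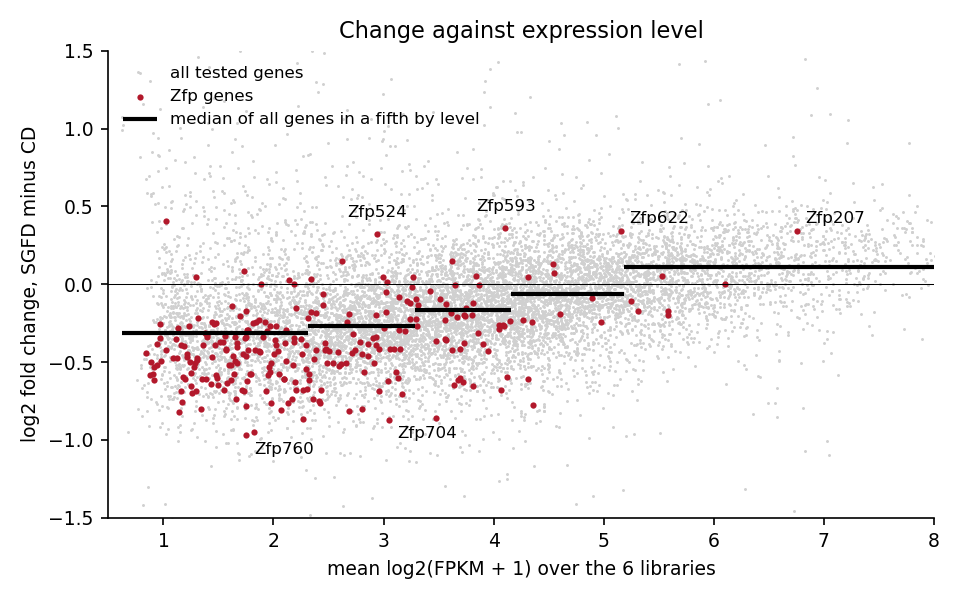
Log2 fold change, SGFD minus CD, against the mean log2(FPKM + 1) over the 6 libraries, for Zfp genes (red) and all tested genes (grey), with black bars at the median of all genes in each of 5 level bins; genes beyond the axis limits are not drawn. Most red points lie under the bars, and Zfp524, Zfp593, Zfp622 and Zfp207 stand above them.

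Transcript length moved with the change as well. Among all tested genes with an annotated transcript, the median change went from 0.09 in the shortest of 5 length bins to -0.34 in the longest. The Zfp genes were lower than that in every bin: -0.14 against 0.09, -0.35 against -0.06, -0.40 against -0.12, -0.45 against -0.20 and -0.48 against -0.34. Of 262 Zfp genes with a transcript, 218 (83.2%) lay below the median of their length bin. The part of RNA quality or of transcript length in the result was not tested.

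The 4 genes that rose have few fingers and no match to the KRAB pattern. Zfp207 (BuGZ), a microtubule-binding protein that loads Bub3 onto kinetochores, was the most abundant Zfp gene, with 96.6, 95.9 and 92.4 FPKM on CD and 117, 124 and 121 FPKM on SGFD. Its log2 fold change was 0.34 ± 0.04 (SE; limma, adjusted p = 8.23e-05), and the diets did not overlap. Zfp622, a maturation factor of the large ribosomal subunit, had 31.5, 30.9 and 29.7 FPKM on CD and 41.5, 38.2 and 37.8 FPKM on SGFD (0.34 ± 0.05, limma adjusted p = 0.000333). Zfp593, the counterpart of a yeast protein that acts in export of the same subunit, went from 14.5, 15.2 and 12.99 FPKM to 19.5, 18.0 and 18.1 FPKM (0.36 ± 0.07, limma adjusted p = 0.00134). For these 3 genes every SGFD library was above every CD library, and they were called higher under each scaling. Zfp524, whose human counterpart binds telomeric DNA, had 5.21, 6.14 and 6.23 FPKM on CD and 7.13, 7.02 and 8.62 FPKM on SGFD. Its change of 0.32 ± 0.10 passed with a limma adjusted p of 0.0135, but not without CD replicate 1 (0.0627) or after scaling to equal FPKM totals (0.0793). The largest fitted rise, 0.41, was that of Zfp972, which was named after its value was seen; it had 0.769, 1.26 and 0.361 FPKM on CD and 1.65, 1.19 and 1.20 FPKM on SGFD. The diets overlapped for Zfp972, and it did not pass (limma, adjusted p = 0.0556).

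The 10 largest falls were ranked on the log2(FPKM + 1) scale, where the change of low genes comes out smaller than their ratios. Their SGFD means were between 0.340 and 0.525 of the CD means, and 28 members in all were at 0.5 or less. By this ratio Zfp708 (0.340) was lower than Zfp760 (0.378). Zfp760, a KRAB gene of chromosome 17, had 3.39, 4.30 and 3.50 FPKM on CD and 1.38, 1.40 and 1.45 FPKM on SGFD, a log2 fold change of -0.97 ± 0.10 (SE; limma, adjusted p = 2.93e-05). Zfp748, a KRAB gene of chromosome 13 with 23 finger matches, had 4.20, 3.89 and 3.65 FPKM on CD and 1.47, 1.93 and 1.28 FPKM on SGFD (-0.95 ± 0.11). In both genes even the highest SGFD library was well under the lowest CD library. Zfp704, with 1 finger match, had 10.4, 10.01 and 10.3 FPKM on CD and 4.77, 5.24 and 5.43 FPKM on SGFD. Zfp467, known for promoting fat cell formation from marrow stroma, had 5.57, 5.10 and 5.83 FPKM on CD and 3.01, 2.30 and 2.43 FPKM on SGFD. Zfp608, a relative of Zfp609, had 14.3, 13.4 and 14.4 FPKM on CD and 7.28, 8.31 and 6.36 FPKM on SGFD. Replicates within a diet stayed close in these 5 genes compared with the distance between diets. The other 5 of the 10 largest falls were those of Zfp708, Zfp715, Zfp275, Zfp773 and Zfp871, between -0.80 and -0.82 on the log2 scale, and Zfp708 rested on the lowest level, 1.95 ± 0.487 FPKM with CD (SD, n = 3). Zfp708 was admitted through CD alone, so its direction was fixed by the level threshold. None of the 10 lost its call in an alternative that tested it, but Zfp760, Zfp748, Zfp708, Zfp275 and Zfp773 were not tested with a filter of 5 FPKM, nor Zfp708 without a CD library. The smallest adjusted p values in the group were those of Zfp704 (limma, 8.70e-06), Zfp664 (9.15e-06) and Zfp395 (1.29e-05). Zfp664 went from 25.9 ± 0.319 to 14.8 ± 1.24 FPKM and Zfp395 from 16.6 ± 0.290 to 10.2 ± 0.166 FPKM (SD, n = 3 each).

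**Figure D3:**
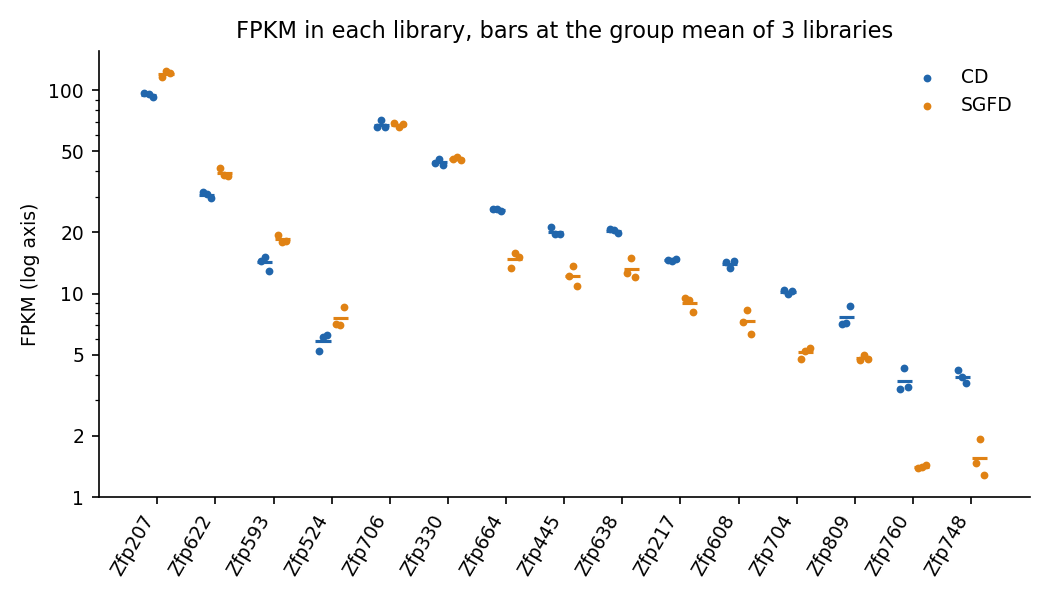
FPKM of 15 Zfp genes in each CD (blue) and SGFD (orange) library on a log axis, with bars at the means of 3 libraries. The 4 genes at the left rise, Zfp706 and Zfp330 overlap between diets, and the SGFD values of the 9 genes from Zfp664 to Zfp748 all lie below the CD values.

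Of the 5 most abundant Zfp genes, Zfp207 rose, 2 fell and 2 overlapped between the diets. Zfp706, a small protein with 1 finger match, had 67.8 ± 3.28 FPKM on CD and 67.7 ± 1.54 FPKM on SGFD (SD, n = 3 each). It did not pass, but was called higher after median-ratio scaling (0.14) and lower with equal FPKM totals (-0.14). Zfp330, a nucleolar protein, went from 44.2 ± 1.69 to 46.0 ± 0.750 FPKM and did not pass (limma, adjusted p = 0.305). Zfp422 fell from 50.4 ± 0.616 to 43.8 ± 2.24 FPKM and Zfp146 from 49.8 ± 1.22 to 44.1 ± 1.72 FPKM, 2 small falls for which median-ratio scaling gave limma adjusted p values of 0.292 and 0.562.

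Genes of imprint and retroelement silencing were mostly lower. In a list of 7, 6 were tested, of which 5 fell and none rose, with a median of -0.47. Of all tested genes 41.8% were lower. After median-ratio scaling 4 of the 6 were lower, and after quantile normalization 3. Among all 10620 tested genes 2844 and 2588 were lower on these scales. Zfp445, which protects imprinted methylation together with Zfp57, had 21.2, 19.6 and 19.7 FPKM on CD and 12.3, 13.7 and 10.9 FPKM on SGFD (-0.68 ± 0.08, limma adjusted p = 6.93e-05). Zfp57 was near the threshold, with 1.53, 1.20 and 1.20 FPKM on CD and 0.641, 0.815 and 0.394 FPKM on SGFD, and was admitted through CD alone, which fixed its direction. Zfp809, which recognises the primer binding site of murine retroviruses, had 7.08, 7.15 and 8.72 FPKM on CD and 4.71, 4.97 and 4.79 FPKM on SGFD (-0.57 ± 0.09, limma adjusted p = 0.000377). The values of Zfp445 and Zfp809 did not overlap between diets. Zfp932, a repressor of endogenous retroviruses, fell from 5.43 ± 0.335 to 3.82 ± 0.766 FPKM, though not after quantile normalization (limma, adjusted p = 0.204). Zfp961 went from 7.84 ± 0.529 to 6.29 ± 0.816 FPKM (limma, adjusted p = 0.0244). It did not pass without CD replicate 3 or SGFD replicate 3, with the replicate number as a block, without the level threshold and after median-ratio scaling or quantile normalization. Zfp568, a repressor of a placental Igf2 transcript, had 4.74 ± 0.338 and 4.24 ± 0.270 FPKM and did not pass. Zfp37 was under the threshold.

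Of 12 hematopoietic or stem cell regulators 10 were tested, and 8 fell and none rose, where 41.8% of all tested genes were lower. Their median was -0.27. Relative to genes of similar level it was -0.19, and relative to genes of similar transcript length -0.07. After median-ratio scaling 4 were lower and none higher, and after quantile normalization 5 were lower and 1 higher. Among all 10620 tested genes 2844 and 2588 were lower on these scales, and 3054 and 2247 higher. Zfp217, a corepressor-bound oncoprotein, had 14.6, 14.5 and 14.7 FPKM on CD and 9.48, 9.33 and 8.15 FPKM on SGFD (-0.65 ± 0.07, limma adjusted p = 4.36e-05). Zfp318, which sets the choice between IgM and IgD transcripts in B cells, fell from 2.73 ± 0.0663 to 1.41 ± 0.214 FPKM. Zfp148 (ZBP-89), a GC box-binding factor, fell from 11.6 ± 0.246 to 8.79 ± 0.274 FPKM. Zfp521, a cofactor of immature blood cells that restrains the B cell factor EBF1, fell from 4.18 ± 0.239 to 3.01 ± 0.284 FPKM, but not after quantile normalization (limma, adjusted p = 0.300). The falls of Zfp335 and Zfp384 did not pass after median-ratio scaling or quantile normalization, and that of Zfp91 did not pass after median-ratio scaling. Leaving out CD replicate 3 also ended the calls of Zfp384 and Zfp91, and leaving out CD replicate 1 or SGFD replicate 3 that of Zfp91. The pluripotency factor gene Zfp281 had 6.83 ± 0.374 and 7.11 ± 0.673 FPKM. Zfp410, which activates Chd4, had 8.64 ± 0.898 and 7.94 ± 0.697 FPKM. Neither Zfp281 nor Zfp410 passed, while Chd4 itself fell from 144.0 ± 2.06 to 116.6 ± 1.55 FPKM.

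Among 8 tested promoter and chromatin factors 4 fell, Zfp652, Zfp592, Zfp24 and Zfp143, and none rose, a share near the 41.8% of all tested genes that were lower. Zfp652 had 13.2 ± 0.625 FPKM on CD and 9.70 ± 1.48 FPKM on SGFD, with a limma adjusted p of 0.0038. The calls of the other 3 were lost after median-ratio scaling and after quantile normalization. Zfp143, an activator bound at promoters and chromatin loops, had 9.23 ± 0.770 FPKM on CD and 7.77 ± 0.573 FPKM on SGFD. Its adjusted p of 0.0363 in limma did not pass without any 1 of CD replicates 1 and 2 and SGFD replicates 1 and 3 or without the level threshold, and that of Zfp24 (0.0185) did not without CD replicate 2, CD replicate 3 or SGFD replicate 1. Zfp131 (13.7 ± 0.888 and 13.6 ± 1.09 FPKM), Zfp64 (10.7 ± 1.27 and 11.97 ± 0.111 FPKM), Zfp609 and Zfp407 did not pass.

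The list of RNA, ribosome and spindle proteins was split. All 11 were tested, 3 of the 4 risers above were among them, and 2 fell, with a median of -0.00. Of all tested genes 41.8% were lower and 17.7% higher. Zfp638 (NP220), which brings the HUSH silencing complex to unintegrated retroviral DNA, had 20.8, 20.6 and 19.8 FPKM on CD and 12.7, 14.97 and 12.02 FPKM on SGFD (-0.59 ± 0.08, limma adjusted p = 0.000126). Zfp346, a binder of double-stranded RNA, went from 8.65 ± 0.982 to 6.24 ± 0.825 FPKM, though not after quantile normalization (limma, adjusted p = 0.112). Zfp598, the ubiquitin ligase of collided ribosomes, had 29.8 ± 2.63 and 28.0 ± 2.22 FPKM and did not pass. Zfp106, Zfp326 and Zfp830 did not pass, nor did Zfp330 and Zfp706, whose values are above.

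The change was graded by the number of fingers. Finger matches were counted in the longest coding sequence of each gene, and 262 of 263 genes had one. The median log2 fold change was -0.13 for 33 genes with 0 to 3 matches, -0.22 for 26 with 4 to 6, -0.34 for 72 with 7 to 10, -0.43 for 82 with 11 to 15 and -0.49 for 49 with 16 to 37. Of the 33 genes with the fewest matches 15 fell and 3 rose. With 11 to 15 matches 75 of 82 fell, and with 16 or more 41 of 49, and none rose, where 41.8% of all tested genes were lower. These counts include members admitted through CD alone, such as Zfp57 (3 matches), Zfp108 (12), Zfp287 (14) and Zfp708 (16). The level threshold fixed the direction of such members. After quantile normalization 32 and 26 of the last 2 bins were lower and 1 gene was higher. Among all 10620 tested genes 2588 were then lower and 2247 higher. The gradient was smaller after quantile normalization, from -0.10 in the first bin to -0.25 in the last. Level and length moved with it. The median level was 10.5 FPKM in the first bin and 2.70 FPKM in the last, and the median transcript was 3299 and 4029 bases long. Relative to the median of genes of similar level, the bins stood at -0.06, -0.07, -0.10, -0.15 and -0.18, and relative to genes of similar transcript length at -0.05, -0.11, -0.20, -0.32 and -0.28. Fewest matches did not mean no fall: Zfp704, Zfp608 and Zfp395 with 1 match and Zfp318 and Zfp638 with 2 were among the larger falls.

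On the deposited scale the medians had the same order in genes that were not chosen. Tested genes with other symbols whose proteins had finger matches numbered 104 with 1 to 3 matches, 48 with 4 to 6, 44 with 7 to 10, 27 with 11 to 15 and 12 with 16 or more. Their median changes were -0.23, -0.31, -0.41, -0.43 and -0.47 in that order. Relative to genes of similar level the medians were -0.08, -0.09, -0.15, -0.14 and -0.20. Relative to genes of similar transcript length they were -0.05, -0.08, -0.18, -0.20 and -0.15, so the order was not fully kept in either. Among all tested genes 41.8% were lower and 17.7% higher. In the first 3 bins 62, 31 and 35 genes fell, and 10, 0 and 1 rose. With 11 to 15 matches 18 of 27 fell and with 16 or more 11 of 12, and none rose. After quantile normalization 12 and 6 of these last bins were lower and 1 was higher, where 2588 of all 10620 tested genes were lower and 2247 higher. Some genes passed the level threshold through CD alone, such as Zbtb37 (3 matches) and Zfp354c (12), which fixed their direction. These genes share the libraries and the level trend with the Zfp genes, since their median level went from 10.8 to 1.93 FPKM.

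**Figure D4:**
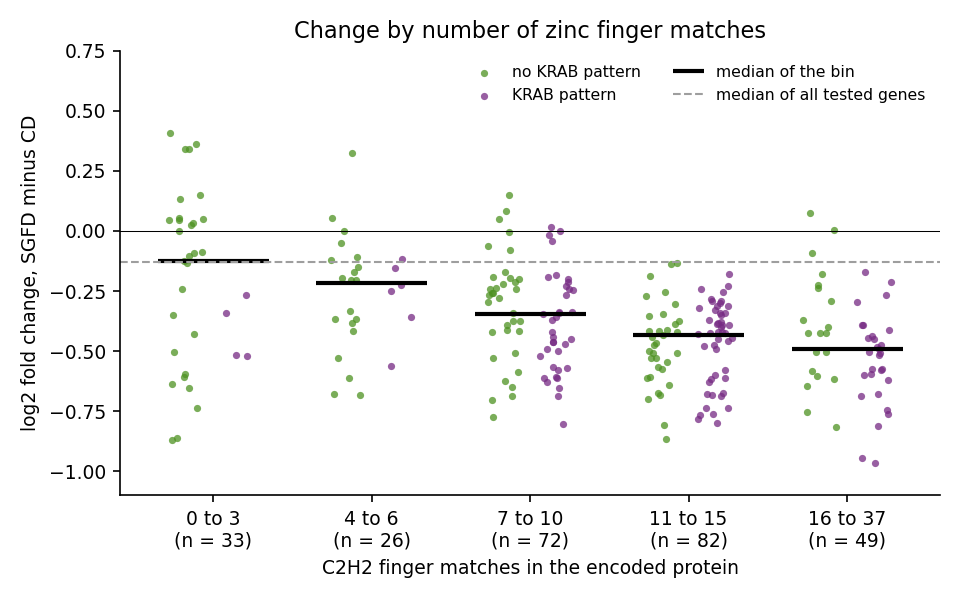
Log2 fold change, SGFD minus CD, of 262 Zfp genes by the number of C2H2 finger matches in the encoded protein, with purple points for genes with the KRAB pattern, green for those without, black bars at the bin medians and a dashed line at the median of all tested genes. The bin medians go from -0.13 at 0 to 3 matches to -0.49 at 16 to 37.

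Genes with and without the KRAB pattern were both lower. Of 124 with it 105 fell and none rose, and of 138 without it 92 fell and 4 rose, with medians of -0.44 and -0.37. Of all tested genes 41.8% were lower. Both counts include members admitted through CD alone, such as Zfp57 with the pattern and Zfp708 without it. After quantile normalization 44 of the 124 were lower and 3 higher, and 54 of the 138 were lower and 13 higher. The share of lower genes was then the smaller one in KRAB genes, but their median was the lower one, -0.19 against -0.16. After median-ratio scaling 85 of the 124 were lower and none higher, and 71 of the 138 were lower and 10 higher. Among all 10620 tested genes 2588 were lower and 2247 higher after quantile normalization, and 2844 lower and 3054 higher after median-ratio scaling. On the deposited scale, the medians of genes with 11 or more finger matches were -0.45 with the pattern (77 genes) and -0.44 without it (54 genes). The difference between them was small there. With 10 or fewer matches they were -0.36 (47 genes) and -0.24 (84 genes). The KRAB genes had a lower median level, 2.89 FPKM against 6.67 FPKM, and relative to genes of similar level the medians were -0.15 and -0.12. A wider pattern added 6 genes and gave the same median, -0.44.

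Many Zfp genes lie in runs of neighbours. Runs were defined as 3 or more listed genes with starts at most 500 kb apart, and 157 members lay in such runs. Of these 123 fell and 1, Zfp524, rose, with a median of -0.42, against 74 falls and 3 rises among 105 members elsewhere, with a median of -0.37. Among all tested genes 41.8% were lower and 17.7% higher. After quantile normalization 57 of the 157 were lower and 6 higher, against 41 lower and 10 higher of the 105. The share of lower genes was then smaller in runs, but the median was lower there, -0.19 against -0.16. After median-ratio scaling 99 of the 157 were lower and 3 higher, against 57 lower and 7 higher of the 105. Among all 10620 tested genes 2588 were lower and 2247 higher after quantile normalization, and 2844 lower and 3054 higher after median-ratio scaling. On chromosome 17 from 21008941 to 23599755 (GRCm38), 16 of 18 tested genes fell, Zfp760 furthest, and 17 of the 18 have the KRAB pattern. On chromosome 13 from 67038594 to 67827000, 15 of 16 fell with a median of -0.59, Zfp748 furthest. On chromosome 7 from 29768552 to 30169775, 12 of 13 fell, and from 12412549 to 12985717 all 7 did. Members admitted through CD alone, such as Zfp40, Zfp708, Zfp420 and Zfp551, were among the falls in these runs. A run on chromosome 7 from 4915181 to 5053723, with no KRAB gene, 2 of 6 fell and Zfp524 rose, shares near those of all tested genes. Similarity between genes of a run was not measured. Where near-identical copies share reads, the counting could have split them, which leaves values of such single genes uncertain.

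**Figure D5:**
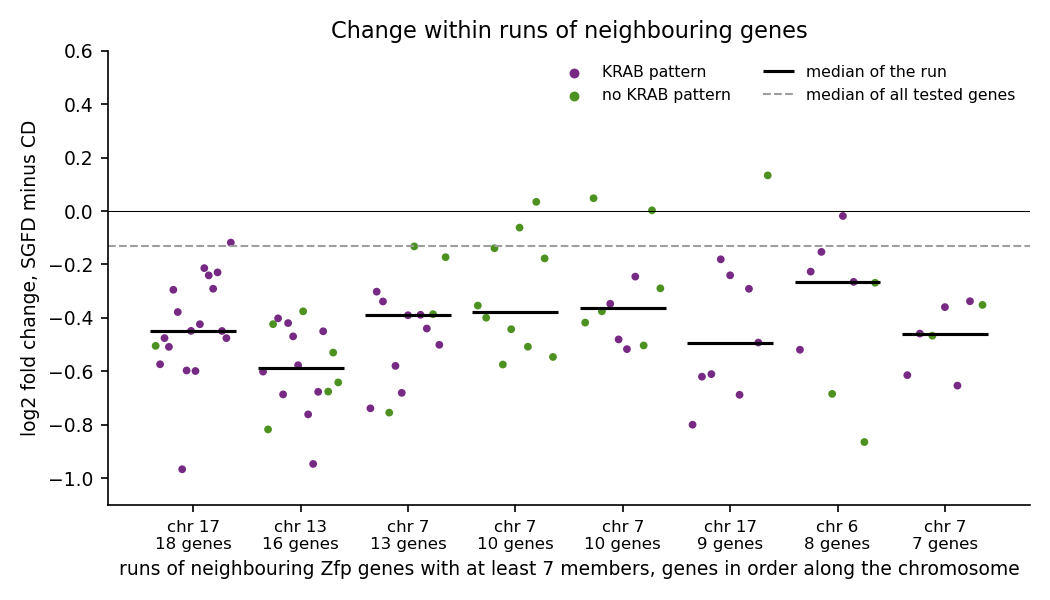
Log2 fold change, SGFD minus CD, of each tested Zfp gene in the 8 runs with at least 7 members, in order along the chromosome, with purple for the KRAB pattern, green for none, black bars at the run medians and a dashed line at the median of all tested genes. In all 8 runs the median lies below the dashed line, and a few genes stand above 0.

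The 250 bases before the annotated starts were compared as well. A RefSeq window (GRCm38.p6) was found for 217 members, 265 windows in all. Zfp windows had a median GC content of 54% and those of all tested genes 60%, and KRAB genes had 52.4% against 59.6% for other members. The E-box CACGTG was present on either strand in 6.42% of Zfp windows and 8.55% of all, the cAMP response element TGACGTCA in 3.40% and 2.62%, and the ETS core CCGGAAG in 16.6% and 14.6%. ACTACAA, part of the Zfp143 motif, was present in 5.28% and 3.99%. None of the 4 motifs contains another. No window was found for the risers Zfp593 and Zfp524, so risers and falls could not be compared as groups. The window of Zfp622, which rose, holds none of the 4. Zfp708 and Zfp871, which fell, each have a window with CACGTG and another with none of the 4. A window with a match and another without are shown, 5′ to 3′ on the gene's strand, with motif matches in capitals. Zfp207 at chr11:80383029-80383278 on the plus strand holds CACGTG, and Zfp760 at chr17:21707491-21707740 on the plus strand holds none of the 4. The Zfp760 window lies inside the gene, which begins at 21707430, so it precedes a later annotated start. The pair does not stand for risers and falls.
Zfp207 promoter: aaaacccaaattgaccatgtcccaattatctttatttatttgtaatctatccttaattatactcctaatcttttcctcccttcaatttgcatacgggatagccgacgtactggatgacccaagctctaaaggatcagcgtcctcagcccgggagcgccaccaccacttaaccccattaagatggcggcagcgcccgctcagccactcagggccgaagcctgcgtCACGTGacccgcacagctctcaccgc
Zfp760 promoter: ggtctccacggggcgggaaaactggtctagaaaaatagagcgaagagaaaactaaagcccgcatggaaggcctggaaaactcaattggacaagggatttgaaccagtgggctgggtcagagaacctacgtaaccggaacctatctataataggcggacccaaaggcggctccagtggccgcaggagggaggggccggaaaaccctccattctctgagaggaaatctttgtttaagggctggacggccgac

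Partners of KRAB proteins and other zinc finger families were read in the same fit. Of all tested genes 41.8% were lower and 17.7% higher. Of 17 corepressor genes 12 fell and none rose, with a median of -0.24. Median-ratio scaling gave 8 lower and 3 higher, and quantile normalization 14 lower and none higher. Among all 10620 tested genes median-ratio scaling gave 2844 lower and 3054 higher, and quantile normalization 2588 lower and 2247 higher. Trim28 itself, the common corepressor, had 224.5 ± 8.41 FPKM on CD and 235.8 ± 7.86 FPKM on SGFD and did not pass. Setdb1 fell from 22.9 ± 0.514 to 17.8 ± 1.83 FPKM, its partner gene Atf7ip from 10.3 ± 0.209 to 5.92 ± 1.08 FPKM and the HUSH subunit gene Fam208a (TASOR) from 5.98 ± 0.284 to 2.25 ± 0.299 FPKM. Zfp genes with a letter after the number had 16 falls and 1 rise in 21, with a median of -0.47. Zscan and Zkscan genes had 12 falls and no rise in 16, and Zbtb genes 23 falls and no rise in 35, with medians of -0.39 and -0.28. After quantile normalization 5 of the Zscan and Zkscan genes and 8 of the Zbtb genes were lower, and 3 Zbtb genes were higher. The share of lower Zbtb genes was then near that of all tested genes. Klf genes, whose proteins have 3 fingers, went the other way on balance, with 5 rises and 4 falls in 12 and a median of 0.13; Klf2 rose from 45.4 ± 5.52 to 257.6 ± 10.2 FPKM. The RNA-binding Zfp36 rose from 565 ± 24.4 to 840.2 ± 48.0 FPKM.

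Markers of other cells moved with the diet in the same libraries. All 5 markers of granulocyte and monocyte progenitors rose, their summed level going from 869 to 897 FPKM on CD to 3441 to 3825 FPKM on SGFD. All 5 monocyte markers rose too, from 35.8 to 37.3 FPKM to 173 to 189 FPKM. Of 8 tested LT-HSC markers 6 fell, and the summed level of all 9 went from 111 to 116 FPKM to 50.8 to 52.5 FPKM. All 5 macrophage markers fell, from 12.8 to 13.4 FPKM to 1.82 to 2.16 FPKM, as did 4 of 5 B and lymphoid markers and the 4 tested erythroid markers. No marker was at 0 on average in either diet, and Cd34 and Flt3, whose proteins the gate excludes, were present at 471 and 114 FPKM on CD. The 4 gate genes Kit, Ly6a, Cd34 and Flt3 were all lower with SGFD, where 41.8% of all tested genes were lower. After median-ratio scaling 2 of the 4 were lower. Kit went from 121.7 ± 0.843 to 71.4 ± 2.06 FPKM (SD, n = 3 each). The part of such shifts in the Zfp result was not tested, and in bulk samples fewer cells of a type and less RNA per cell cannot be told apart.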

How the data were processed

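RNA was sequenced from 6 libraries of sorted bone marrow cells, 3 per diet. Tools listed in the submitters' processing notes were StringTie, HISAT2 and fastp, and the genome builds mm10 and GRCm38; no versions were given. The authors deposited 1 table of FPKM per library. No source names this unit, which was worked out from the numbers themselves. In 99.98% of the genes examined, dividing by a common step gave integers (tolerance 0.02), which puts the libraries at 18208509 to 19304007 fragments per library and 6 to 6716 (median 307) per Zfp gene and library, up to an unknown factor per gene.

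Genes with at least 1 FPKM in 3 of 6 libraries were tested in R 4.3.3 by limma 3.58.1 after a log2(FPKM + 1) transformation of the deposited values (trend and robust settings, two-sided, adjusted p under 0.05), a scale that understates the change of low genes. The limma fit was checked on simulated data. Members and lists were chosen with earlier results of these data known. Named genes were all risers, the 10 largest falls without overlap, the 5 highest, a role panel, those next to the level threshold and the 3 smallest p. Fingers were counted as C, 2 to 4 residues, C, 12 residues, H, 3 to 5 residues, H in translated GENCODE M21 coding sequences, since no protein table was used here. KRAB was a match to an aspartate or glutamate followed by W, then L, Q and a final Y or F at the spacing of the A box. Alternatives were other filters, pseudocounts, scalings, weights, variance models, thresholds, a replicate block and leaving out each library.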

Additional observations from a re-analysis of the deposited data

How the results depend on the processing

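Counts of Zfp genes moved most with scaling. With array quality weights 8 were higher, after median-ratio scaling 10 and after quantile normalization 16, against 4; 99 were lower after quantile normalization and 82 (of 118 tested) with a filter of 5 FPKM, against 198, the latter because fewer genes were tested. The median log2 fold change was -0.51 with equal FPKM totals, -0.31 with 5 FPKM, -0.30 after median-ratio scaling, -0.52 and -0.51 with pseudocounts of 0.01 and 0.1, and -0.18 after quantile normalization. Less the median of all tested genes it was -0.38, -0.37 and -0.16 with pseudocounts of 0.01 and 0.1 and after quantile normalization, against -0.28. With 5 FPKM, 35 of 118 lay above the median of genes of similar level, against 66 of 263. Leaving out 1 library gave 160 to 207 lower, 3 to 6 higher and medians of -0.43 to -0.37; without a CD library 244 genes were tested.

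The labels do not say whether replicate numbers pair the libraries. Deviations of same-numbered libraries correlated at -0.01, -0.23 and -0.13, and none correlated best with its own number. Since deviations were taken from the mean of only 3 libraries per diet, these values cannot exclude a shared day or batch. With the replicate block 189 were lower and 4 higher, and among named genes the call of Zfp961 was lost.

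Of 38 named genes that passed, 23 lost no call in the alternatives that tested them; of these, Zfp760, Zfp748, Zfp275, Zfp773, Zfp318, Zfp708 and Zfp57 were not tested with a filter of 5 FPKM, nor the last 2 without a CD library. Sign changes were seen only in named genes that had not passed. With array quality weights they were Zfp706 (0.023) and Zfp131 (0.00058). With equal FPKM totals they were Zfp330 (-0.084), Zfp281 (-0.076) and Zfp830 (-0.084). After median-ratio scaling they were Zfp706 (0.14), Zfp410 (0.016), Zfp131 (0.13), Zfp326 (0.00077), Zfp598 (0.049) and Zfp106 (0.029). After quantile normalization they were Zfp568 (0.14), Zfp410 (0.11), Zfp407 (0.029), Zfp609 (0.070), Zfp131 (0.14) and Zfp326 (0.047). Without 1 library, Zfp706 ranged from -0.021 to 0.038, Zfp131 from -0.055 to 0.052, Zfp281 from -0.016 to 0.1002 and Zfp830 from -0.018 to 0.094. The cause was not tested.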
